A study of Homo sapiens with 4 samples.

Results

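NRF2, encoded by NFE2L2, and its inhibitor KEAP1 were examined with 7 antioxidant genes known as NRF2 targets: HMOX1, SRXN1, TXNRD1, GCLM, GCLC, NQO1 and OSGIN1. The 9 genes were chosen by function, with earlier results of these data known. They were picked out by symbol, from probe sets that the platform annotation ties to a single gene. Each was read from its brightest probe set. All 9 were found among the 19775 genes that could be named in this way. RNA came from AGS, a human gastric adenocarcinoma cell line, with PRMT6 knocked out (knockout, 2 arrays) or with wild-type PRMT6 (control, 2 arrays). Cells were grown in serum-containing medium with antibiotics, and no stressor or inducer is named for either group. The knockout used a lentiCRISPR v2 vector, puromycin and limiting dilution to isolate clones, with a single guide of 20 bases against PRMT6, gacggtactggacgtgggcg, shown because it names the edit. The labels do not say which clone each knockout array came from, whether the control cells carried a vector, or whether the arrays of a group came from separate cultures, so p-values measure only the spread between these arrays, which may be technical. PRMT6 is an arginine methyltransferase that marks histone H3, and the comparison addresses how its loss changes the RNA of gastric cancer cells.

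In unstressed cells KEAP1 holds NRF2 and hands it to a CUL3 ubiquitin ligase for degradation. Oxidants and electrophiles modify KEAP1, NRF2 then accumulates, pairs with a small MAF protein and binds antioxidant response elements near genes for glutathione synthesis, thioredoxin recycling, haem breakdown and quinone reduction. NRF2 is thus controlled mainly at the protein level, which arrays do not measure. In gastric and other epithelial cancers the pathway is known for protection from oxidative damage and for drug resistance.

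In PRMT6-knockout cells, 8 of the 9 transcripts were lower than in control cells at an adjusted p below 0.05 in limma, against a background of 11.5% of all genes called lower. The genes were chosen with earlier results of these data known, so this count describes them and is not an independent test. The 7 target genes fell by 0.67 to 2.44 on the log2 scale, or 1.59-fold to 5.43-fold. SRXN1 and HMOX1 fell furthest. NFE2L2 itself fell by only 0.34, and KEAP1 did not pass the test. Of the 9 genes 6 fell by 2-fold or more and were called, as were 2.16% of all genes. The median difference was -1.44 over the 9 genes and -0.01 over all genes. Both knockout arrays lay below both control arrays for 8 of the 9 genes, as for 29.1% of all genes, and the groups were separate in one direction or the other for all 9, as for 58.2% of all genes. The count of 8 called lower also held among the brighter genes alone, where 26.0% were called lower. It was 8 under reference gene scaling too, where 48.0% were, but this scaling lowers the difference of every gene and could hardly undo a fall. The count was 7 with the mean of probe sets, with all probe sets tested and with the replicate block. The arrays measure RNA relative to the other transcripts of each culture, so less of a transcript per cell and fewer cells carrying it cannot be told apart.

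**Figure D1:**
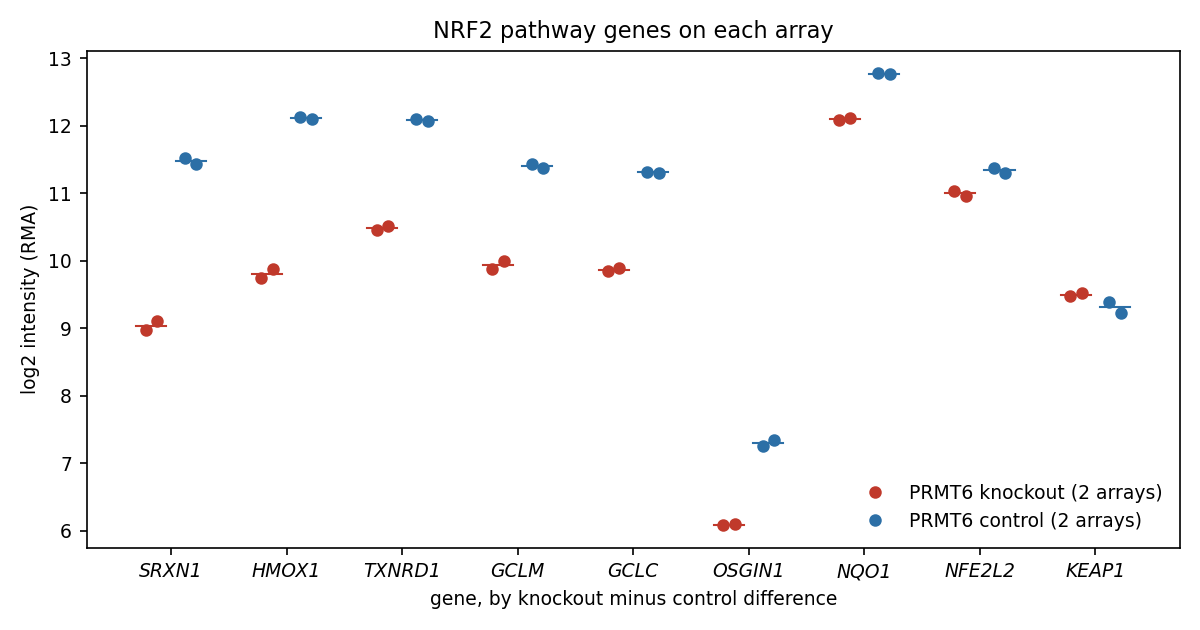
Log2 intensity of the 9 genes (horizontal axis, ordered by difference) on each of the 2 PRMT6-knockout arrays (red, left) and 2 control arrays (blue, right); points are arrays and bars their mean. The knockout arrays lie below the control arrays for every gene but KEAP1, where they lie between 9.47 and 9.52, above the control arrays at 9.39 and 9.23.

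Facts of the whole series bear on these values as follows. Log2 intensities of the 54613 probe sets had array medians of 5.01 to 5.02, and the arrays correlated over probe sets at a Pearson r of 0.996 (knockout), 0.995 (control) and 0.981 to 0.984 (different groups). PRMT6 read 7.79 and 7.63 on the knockout arrays, against 8.03 and 8.11 on the control arrays. The difference was -0.36 (limma adjusted p = 0.043). Without any one of the 4 arrays the call was lost, with differences of -0.44 to -0.28. At an unchanged difference the call was also lost with the replicate block (limma adjusted p = 0.076), with gene-specific probe sets alone (0.057) and with all probe sets tested (0.085). Whether the PRMT6 probe set lies near the edit is not given in the sources used here. In all 24.0% of genes were called, 12.4% higher and 11.5% lower. The 2281 genes called lower became 1258 without control 1, 1201 without control 2, 374 without knockout 1 and 354 without knockout 2. Of 9 measured epithelial markers all lay above the median gene's level of 5.97, compared with 2 of 9 fibroblast markers, 2 of 7 leukocyte markers and 0 of 6 endothelial markers. The 9 NRF2 pathway genes, with means over the 4 arrays of 6.70 to 12.44, lay above the median gene too.

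The core of the antioxidant response element is written TGACNNNGC, where N is any base. It was searched on both strands of the RefSeq promoter windows (GRCh38.p14), each running from 250 bases before to 50 bases after a transcription start. Windows were found for 8 of the 9 genes, 11 windows in all, and not for HMOX1. A match was present in 3 of these 8 genes, or 37.5%, as compared with 16.1% of all 27305 genes with a window. By window it was present in 4 of the 11, as compared with 13.3% of all 35116 windows. Of the 7 genes with a window that were called lower, 2 held a match. These counts are small, and enrichment was not tested. The 4 windows that held a match are shown because they place the element beside genes whose transcripts did and did not fall. They are printed 5′ to 3′ on the gene's strand, with each match in capitals.
GCLM, chr1:93909381-93909680, minus strand: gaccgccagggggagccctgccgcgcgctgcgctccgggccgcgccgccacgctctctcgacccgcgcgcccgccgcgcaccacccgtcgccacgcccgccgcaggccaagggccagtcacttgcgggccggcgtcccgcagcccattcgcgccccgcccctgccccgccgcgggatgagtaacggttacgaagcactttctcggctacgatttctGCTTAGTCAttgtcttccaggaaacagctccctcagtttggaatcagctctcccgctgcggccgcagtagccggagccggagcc
TXNRD1, start 1, chr12:104215529-104215828, plus strand: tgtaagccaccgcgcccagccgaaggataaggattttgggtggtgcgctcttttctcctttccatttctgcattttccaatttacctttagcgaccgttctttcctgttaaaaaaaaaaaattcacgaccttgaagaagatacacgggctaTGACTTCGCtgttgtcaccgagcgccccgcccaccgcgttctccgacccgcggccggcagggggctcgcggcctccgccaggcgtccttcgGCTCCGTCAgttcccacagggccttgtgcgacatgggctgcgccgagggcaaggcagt
TXNRD1, start 2, chr12:104286782-104287081, plus strand: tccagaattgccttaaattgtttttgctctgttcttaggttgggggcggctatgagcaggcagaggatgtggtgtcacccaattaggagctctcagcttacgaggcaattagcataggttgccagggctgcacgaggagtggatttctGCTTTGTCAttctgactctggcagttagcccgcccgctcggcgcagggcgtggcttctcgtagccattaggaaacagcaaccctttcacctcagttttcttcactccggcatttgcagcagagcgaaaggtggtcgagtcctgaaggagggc
KEAP1, start 1, chr19:10502722-10503021, minus strand: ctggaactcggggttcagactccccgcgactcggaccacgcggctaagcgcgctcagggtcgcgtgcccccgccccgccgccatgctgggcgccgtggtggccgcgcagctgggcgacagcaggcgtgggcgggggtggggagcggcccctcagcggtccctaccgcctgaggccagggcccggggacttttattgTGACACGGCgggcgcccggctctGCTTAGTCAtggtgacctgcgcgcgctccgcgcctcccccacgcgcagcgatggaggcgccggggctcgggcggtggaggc
The same 9 letters, GCTTAGTCA, stood 34 bases before the start in GCLM and 31 bases before it in KEAP1. These letters, read on either strand, were present in 0.103% of all windows. They were picked because both genes hold them, so this share does not measure how unusual the sharing is. GCLM fell 2.78-fold in the knockout cells, whereas KEAP1 did not pass the test. KEAP1 start 1 held a second match 54 bases before the start, and its other window held none. TXNRD1 start 1 held a match beginning 99 bases before the start and one that reached the start itself, and start 2 held one 102 bases before. No match was present in the windows of NFE2L2, SRXN1, GCLC, NQO1 and OSGIN1, which says only that these letters are not in these 300 bases. The known element of human NQO1 lies further upstream. A match is a description of letters, and no binding was measured.

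**Figure D2:**
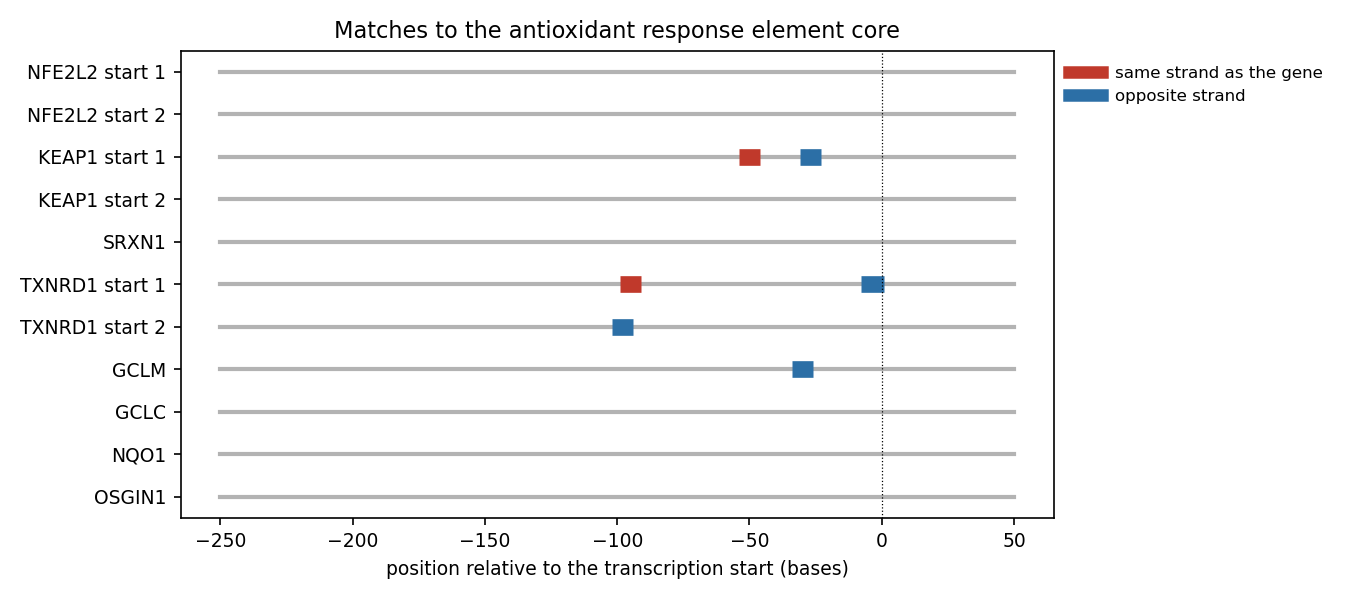
Matches to the element core in the 11 RefSeq promoter windows of 8 genes, placed by distance from the transcription start (horizontal axis, in bases; dotted line, start). Red marks a match on the gene's strand and blue one on the opposite strand; GCLM, KEAP1 start 1 and both TXNRD1 windows hold the 6 matches.

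The pathway's regulator and its inhibitor differed least. NFE2L2 read 11.04 and 10.96 on the knockout arrays, against 11.37 and 11.30 on the control arrays. Both knockout arrays lay below both control arrays, by less than the gap seen for any target gene. The difference was -0.34 (SE 0.08, 95% confidence interval -0.55 to -0.14; limma adjusted p = 0.035), or 1.27-fold lower in the knockout. This call was not firm: it was lost in 7 of the 11 alternative settings, including leaving out control 1 (adjusted p = 0.12), control 2 (0.089), knockout 1 (0.14) or knockout 2 (0.21). The other two probe sets of NFE2L2, both dimmer, gave -0.19 and -0.09, and neither was called. KEAP1, the adaptor that targets NRF2 for degradation, read 9.47 and 9.52 on the knockout arrays and 9.39 and 9.23 on the control arrays. Its difference of 0.18 (SE 0.09, 95% confidence interval -0.05 to 0.41; limma adjusted p = 0.23) did not pass the test. When arrays were scaled to equal means of 12 reference genes, the KEAP1 difference became -0.12, so its direction depends on the scaling. Before scaling 6 of these 12 genes were called higher and 0 lower, with a median difference of 0.27. This scaling therefore lowers the difference of every gene.

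Both subunits of glutamate-cysteine ligase, the enzyme of the rate-limiting step of glutathione synthesis, fell by nearly the same amount. GCLC, the catalytic subunit, read 9.85 and 9.89 on the knockout arrays, against 11.32 and 11.31 on the control arrays. The gap between groups far exceeded the spread within them, with an SD of 0.03 in the knockout and 0.01 in the control. GCLC fell by 1.44 (SE 0.08, 95% confidence interval -1.63 to -1.25; limma adjusted p = 0.00061), or 2.72-fold. GCLM, the modifier subunit whose promoter window is shown above, read 9.87 and 10.00 on the knockout arrays and 11.44 and 11.38 on the control arrays. It fell by 1.47 (SE 0.09, 95% confidence interval -1.69 to -1.26; limma adjusted p = 0.00079), or 2.78-fold, and its arrays did not overlap between groups. The confidence intervals of the subunits overlapped widely. The 3 GCLC probe sets gave differences of -1.46 to -1.37 and the 3 GCLM probe sets -1.61 to -1.47, and all 6 were called lower when all 54613 probe sets were tested together, where 6.38% were called lower.

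SRXN1 and TXNRD1, enzymes that recycle peroxiredoxin and thioredoxin, were lower as well. SRXN1, sulfiredoxin, which restores peroxiredoxins inactivated by overoxidation, read 8.97 and 9.10 on the knockout arrays, against 11.52 and 11.43 on the control arrays. Its fall of 2.44 (SE 0.09, 95% confidence interval -2.66 to -2.22; limma adjusted p = 0.00028), or 5.43-fold, was the largest of the 9 and ranked 38 among the falls of all 19775 genes. TXNRD1, the cytosolic selenoenzyme that reduces thioredoxin with NADPH, read 10.45 and 10.51 on the knockout arrays, against 12.10 and 12.07 on the control arrays. Both groups were tight, with an SD of 0.04 in the knockout and 0.02 in the control. TXNRD1 fell by 1.60 (SE 0.08, 95% confidence interval -1.80 to -1.41; limma adjusted p = 0.00053), or 3.04-fold. Its second probe set was dim, at 2.36 and 2.84 in the knockout and 2.58 and 2.45 in the control, and was not called. Averaging it with the first gave a TXNRD1 difference of -0.76 (adjusted p = 0.0052).

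HMOX1, the inducible haem oxygenase that cleaves haem to biliverdin, iron and carbon monoxide, had the next largest fall. It read 9.74 and 9.87 on the knockout arrays, against 12.13 and 12.10 on the control arrays. Within groups the SD was 0.09 in the knockout and 0.02 in the control, so the gap between groups far exceeded the spread within them. HMOX1 fell by 2.31 (SE 0.09, 95% confidence interval -2.53 to -2.10; limma adjusted p = 0.00029), or 4.97-fold. Its confidence interval overlapped that of SRXN1 and lay wholly below that of TXNRD1. HMOX1, SRXN1, OSGIN1 and KEAP1 were each read by a single probe set, so no second probe set was there to compare.

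NQO1, a quinone reductase widely used as a readout of NRF2 activity, fell less than the other target genes. Its brightest probe set read 12.09 and 12.11 on the knockout arrays, against 12.78 and 12.77 on the control arrays. The fall was 0.67 (SE 0.07, 95% confidence interval -0.86 to -0.48, limma adjusted p = 0.0039), or 1.59-fold. For this probe set the interval overlapped that of NFE2L2 but not that of OSGIN1. The call was lost without knockout 1 (adjusted p = 0.065) and without knockout 2 (0.066). All 3 NQO1 probe sets fell, with differences of -0.90 to -0.67, and the brightest gave the smallest difference; each is of a type that can match more than 1 transcript. OSGIN1, an oxidative stress induced growth inhibitor, read 6.08 and 6.10 on the knockout arrays, against 7.25 and 7.35 on the control arrays. Its knockout arrays were close to the median gene's level, and it fell by 1.21 (SE 0.08, 95% confidence interval -1.41 to -1.01; limma adjusted p = 0.0011), or 2.32-fold.

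**Figure D3:**
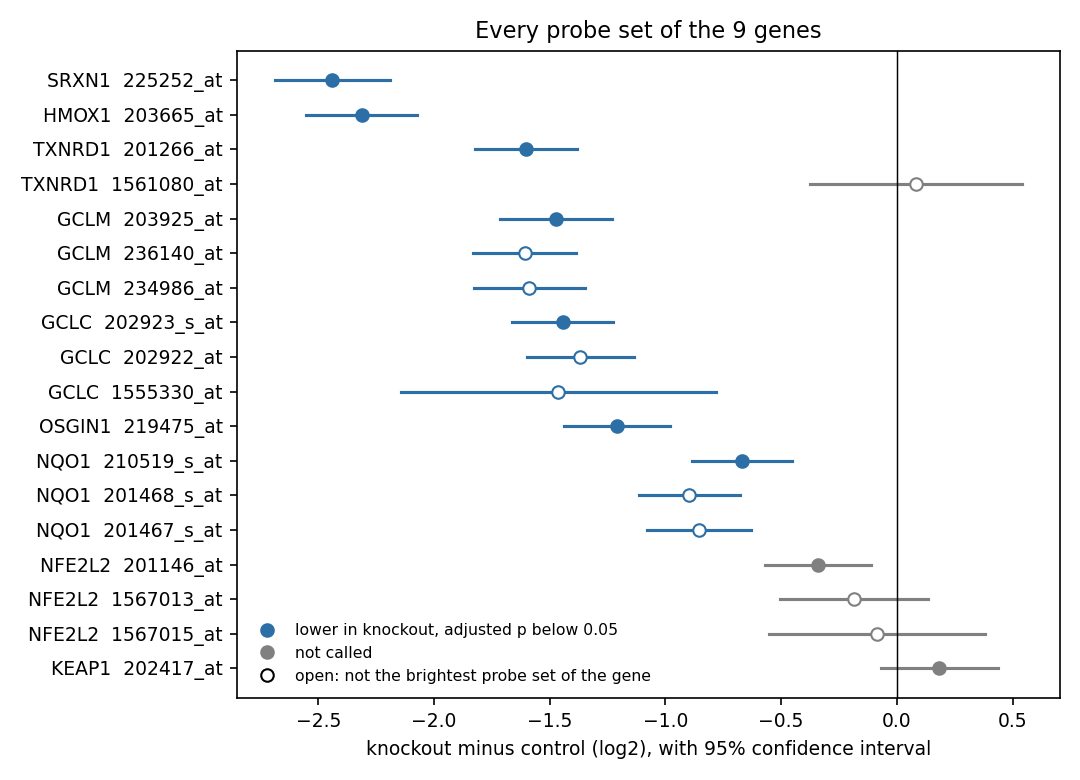
Knockout minus control difference (log2, horizontal axis) of all 18 probe sets of the 9 genes, with 95% confidence intervals, when every probe set of the array was tested together. Filled points are the brightest probe set of a gene; 13 probe sets were called lower (blue), and those of NFE2L2 and KEAP1 and the dim one of TXNRD1 were not called (grey), NFE2L2 reaching an adjusted p of 0.076 in this fit.

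In order of difference the genes, each read from its brightest probe set, fell into steps. SRXN1 and HMOX1 came first, followed by TXNRD1, GCLM, GCLC and OSGIN1, whose neighbours in the order had overlapping confidence intervals. NQO1 and NFE2L2 came next with overlapping intervals, and KEAP1 last. The intervals of HMOX1 and TXNRD1, of OSGIN1 and NQO1, and of NFE2L2 and KEAP1 did not overlap. The last 2 gaps depend on the probe set. With all probe sets tested, the dimmer NQO1 probe sets (-1.12 to -0.68 and -1.08 to -0.63) overlapped OSGIN1 (-1.44 to -0.98). The dimmer NFE2L2 probe sets (-0.51 to 0.14 and -0.55 to 0.38) overlapped KEAP1 (-0.07 to 0.44). By the smallest root mean square distance over the 4 arrays between values centred on the control mean, the genes most alike to SRXN1 were CIMAP1B (distance 0.05, difference -2.42, but -0.56 with the mean of its probe sets), SEL1L (0.06, -2.45) and HERPUD1 (0.06, -2.35), both of which serve protein degradation at the endoplasmic reticulum. Those most alike to KEAP1 were NIBAN2, BLCAP and THAP4, with differences of 0.18 to 0.19 that were not called. These likenesses rest on 4 arrays and 2 groups.

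**Figure D4:**
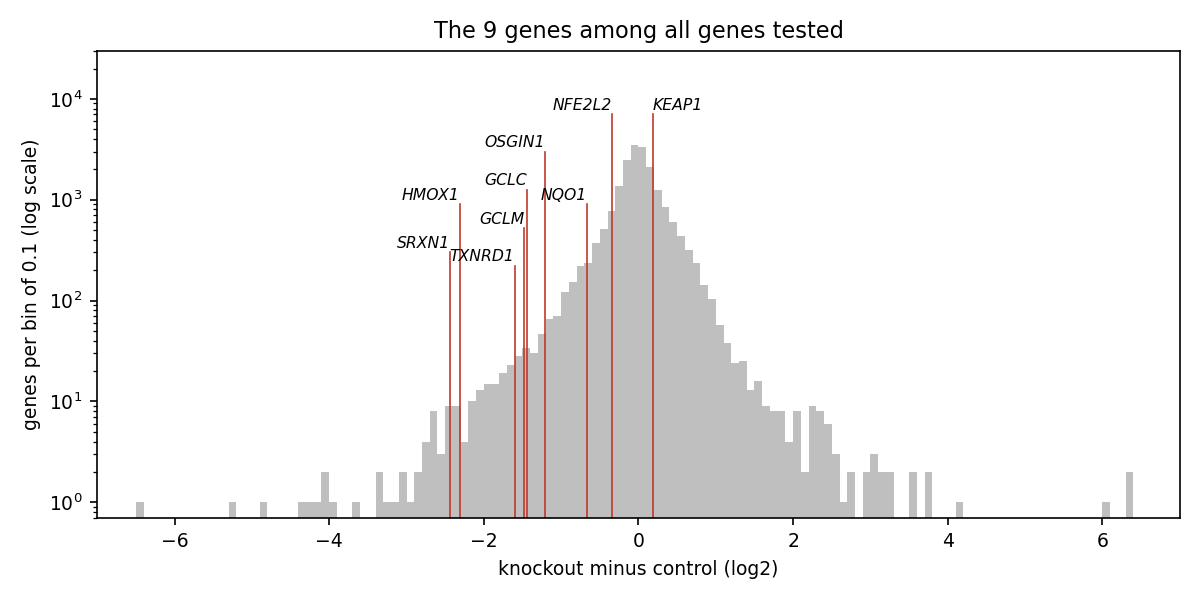
Number of genes per bin of 0.1 of the knockout minus control difference (log2) over all 19775 genes, on a log scale; red lines mark the 9 NRF2 pathway genes. SRXN1 at -2.44 and HMOX1 at -2.31 lie in the far left tail, whereas NFE2L2 at -0.34 and KEAP1 at 0.18 lie within the bulk.

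The wider pathway moved both ways. Over 7 further lists of NRF2 partners, glutathione, thioredoxin, NADPH, detoxification, haem and iron, and peroxide genes, 110 genes were measured, of which 27 rose, 27 fell and 56 were not called, with a median difference of 0.04 (over all genes 12.4% rose and 11.5% fell, median -0.01). Most genes of each list lay above the median gene, and 100 of the 110 were among the brighter genes. Of these 100, 39 rose and 29 fell when brighter genes alone were tested, beside 2998 and 2569 of 9887. The split of the 110 genes rested on the scaling. Equal means of the reference genes lowered the difference of every gene and gave a median of -0.26, beside -0.31 for all genes. Then 14 rose and 51 fell, beside 5.62% and 48.0% of all genes. The counts of each list below are read against these same shares. The counts also rested on all 4 arrays: with any single array left out fewer were called in both directions. The same was true of all genes, so fewer calls in such fits are not particular to these lists. Among 14 partners and regulators 6 fell and 3 rose, or 9 and 2 under reference gene scaling. MAFF and MAFG, small MAF proteins that pair with NRF2, gave differences of -2.66 (SE 0.16) and -1.58 (SE 0.08), with MAFF at 8.48 and 8.92 on the knockout arrays and at 11.37 and 11.34 on the control arrays. SQSTM1, the autophagy receptor p62 that binds KEAP1, fell by 1.34 (SE 0.08). BACH1, a repressor that competes with NRF2 for the same elements, fell by 0.93 (SE 0.09). With their brightest probe sets all 4 had limma adjusted p-values between 0.00056 and 0.0025. With the mean of their probe sets all 4 differences were smaller, at -2.36 for MAFF, -1.20 for MAFG, -0.72 for SQSTM1 and -0.34 for BACH1.

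Glutathione genes moved both ways. Of 36 measured genes of glutathione synthesis and use 11 rose and 9 fell, with a median of 0.09, beside 12.4%, 11.5% and a median of -0.01 over all genes. The split turned under reference gene scaling, with 2 higher, 15 lower and a median of -0.21. Among brighter genes alone 13 of 31 were higher and 10 lower, beside 2998 and 2569 of 9887. Fewer were called in both directions with any single array left out, as for all genes. ABCC3, an exporter of conjugates, fell by 1.92 (SE 0.12), the transferase GSTM4 fell by 1.45 (SE 0.13), SLC3A2, the heavy chain of the cystine transporter, fell by 1.38 (SE 0.08), and CHAC1, which degrades glutathione, fell by 1.36 (SE 0.13). The ABCC3 value depends on the probe set: it was -1.17 with the mean of its probe sets and -0.68 with the brightest gene-specific one. Chosen after their values were seen, because they act beside glutamate-cysteine ligase, SLC7A11, the light chain of the cystine transporter, fell by 1.27 and GSR, glutathione reductase, fell by 0.39, whereas GSS, which completes glutathione after the ligase step, rose by 0.47. GSTM4 belongs to a family of near-identical genes, so its signal may include its relatives.

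In the thioredoxin and peroxiredoxin list 6 of 17 genes rose and 1 fell, with a median of 0.21, beside 12.4% and 11.5% over all genes. Under reference gene scaling 4 were higher and 4 lower, with a median of -0.09. Among brighter genes alone 9 of 16 were higher and 1 lower, beside 2998 and 2569 of 9887. With any single array left out fewer were called higher, as for all genes. SESN2, a stress-induced sestrin, fell by 1.50 (SE 0.12), while TXNIP, the inhibitor of thioredoxin, rose by 1.24 (SE 0.20), the methionine sulfoxide reductase MSRB1 rose by 0.87 (SE 0.08) and SESN1 rose by 0.67 (SE 0.10). TXN, thioredoxin, the substrate of TXNRD1, gave -0.17 and was not called, although it was called lower with an intensity trend in the prior (adjusted p = 0.012) and under reference gene scaling (0.0079). PRDX1, a peroxiredoxin that SRXN1 repairs, rose by 0.34; TXN and PRDX1 were chosen for their role after their values were seen. Of 12 measured genes of NADPH supply, PGLS (-0.75, SE 0.08) and IDH1 (-0.62, SE 0.08) fell and 10 were not called, a share close to the 11.5% of all genes called lower. Under reference gene scaling 6 of the 12 were lower, beside 48.0% of all genes, and neither call held without knockout 1 or without knockout 2.

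Quinone, carbonyl and conjugation enzymes included the extremes. AKR1B10, an aldo-keto reductase induced through NRF2, fell by 2.33 (SE 0.10), with 7.90 and 8.10 on the knockout arrays, against 10.34 and 10.33 on the control arrays. PTGR1, which reduces prostaglandins and reactive aldehydes, fell by 1.32 (SE 0.07). By contrast AKR1C3 rose by 3.09 (SE 0.10) above control readings of 5.12 and 4.90, and ALDH1A1, an aldehyde dehydrogenase, rose by 6.32 (SE 0.08) above control readings of 2.65 and 2.70. Neither control level is known to exceed background, so these sizes are approximate. In all, 6 of 14 fell and 2 rose, or 9 and 2 under reference gene scaling. Fewer were called lower without control 2 or either knockout array, as for all genes. AKR1C1 and AKR1C2 went the other way from AKR1C3, with differences of -1.12 each (limma adjusted p = 0.002 and 0.0049). Both were chosen after their values were seen and are left out of later counts and checks of named genes. Members of the AKR1C family are near-identical in sequence, and their probe sets may share signal.

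Among 11 haem and iron genes 3 rose and 3 fell, with a median of -0.02, or 2 and 7 under reference gene scaling, with a median of -0.32. Leaving out any single array gave fewer calls in both directions, as for all genes. SLC40A1, the iron exporter ferroportin, rose by 1.43 (SE 0.16) and the transferrin receptor TFRC rose by 0.80 (SE 0.08), or by 0.87 and 0.48 with the mean of their probe sets, while the haem transporter SLC48A1 fell by 1.10 (SE 0.08) and FECH, which inserts iron into haem, fell by 0.42 (SE 0.08). Of 6 genes of superoxide and peroxide removal, PON2 (0.94, SE 0.08) and PARK7 (0.61, SE 0.08) rose and the rest were not called. Fewer were called without either knockout array, as for all genes. Adjusted p-values in limma of the genes named by the fixed rule in these 6 lists were at most 0.022.

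Other stress responses moved in the same arrays. Of 17 unfolded protein and ATF4 stress genes 16 fell, beside 11.5% of all genes, with a median of -1.65. Among brighter genes alone, where 26.0% were called lower, 16 of 16 fell. Fewer of the list were called without either knockout array, as for all genes. The falls were led by DNAJB9 (-3.15, SE 0.09), ATF3 (-2.81, SE 0.12), DDIT3 (-2.71, SE 0.10) and SEL1L (-2.45, SE 0.07). The ATF3 difference was -0.70 with its gene-specific probe set. CHAC1, SLC7A11 and SESN2 are held by both this list and those of glutathione and thioredoxin. Of 9 measured heat shock genes 4 fell and 2 rose, beside 11.5% and 12.4% of all genes, with a median of -0.07. All 9 lay above the median gene. Tested among brighter genes alone, 4 fell and 2 rose, beside 2569 and 2998 of 9887. Under reference gene scaling 6 were lower and 2 higher, beside 48.0% and 5.62% of all genes. With any single array left out fewer were called, as for all genes. HSPA6 fell by 6.42 (SE 0.22) to knockout readings of 3.95 and 4.47 that are not known to exceed background, so this size is approximate. BAG3 fell by 1.19 (SE 0.09), DNAJB1 fell by 1.11 (SE 0.08) and HSPB1 rose by 0.86 (SE 0.11). Of the 38 called genes named from these 9 lists or for their likeness to SRXN1, 19 stayed called without each single array. The calls of BACH1, GSTM4, GSS, GSR, SESN2, TXNIP, MSRB1, SESN1, PRDX1, PGLS, IDH1, SLC40A1, TFRC, FECH, PON2, PARK7, BAG3, DNAJB1 and HSPB1 were lost without at least 1 array, with highest adjusted p-values of 0.050 to 0.26. Under reference gene scaling the rises of MSRB1, SESN1, TFRC, PARK7 and HSPB1 shrank to 0.57, 0.37, 0.50, 0.31 and 0.56 but stayed called. GSS and PRDX1 were lost under it, and GSR when gene-specific probe sets alone were tested (adjusted p = 0.061) and, like PRDX1, in the fit of all probe sets. HMOX1 is known to respond to several of these pathways besides NRF2. Their part in the falls of the 9 genes was not tested.

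**Figure D5:**
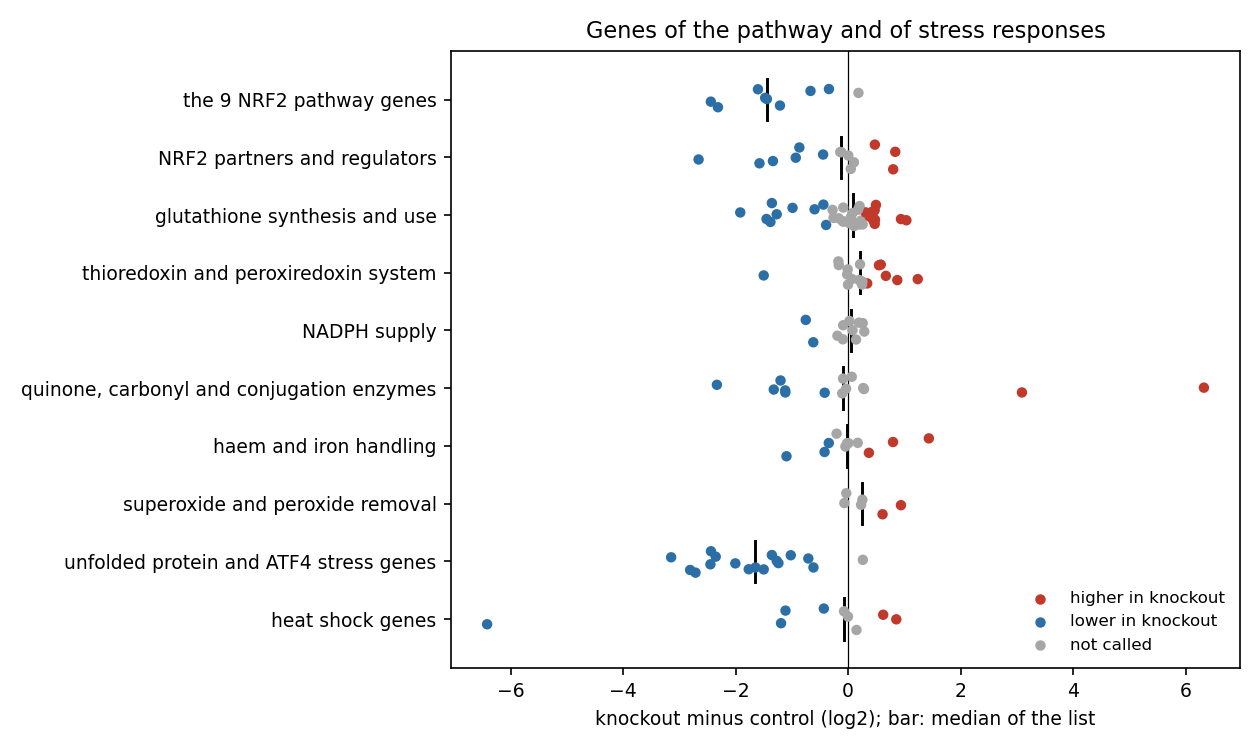
Knockout minus control difference (log2, horizontal axis) of each measured gene of the 9 NRF2 pathway genes, of 7 further lists of the pathway and of 2 lists of stress genes; red and blue points were called higher and lower in the knockout, grey points were not called, and bars mark medians. The 9 genes (median -1.44) and the unfolded protein and ATF4 genes (median -1.65) lie to the left, and the 7 further lists have medians of -0.13 to 0.24.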

How the data were processed

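The authors deposited log2 intensities of 54613 probe sets on 4 arrays; the submitters' processing notes name RMA and the affy package, without versions, and the range of the values gave the log2 scale. RMA corrects background, quantile-normalizes and summarizes probes, so differences are relative to other transcripts and are compressed for dim probe sets. Probe sets were named from the platform annotation, with symbols updated to the RefSeq table of GRCh38.p14: 41091 had 1 gene, 1801 several and 11721 were not listed. Each of 19775 genes was represented by its probe set with the highest mean.

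Groups followed the sample labels. Differences (knockout minus control) were tested with limma 3.58.1 in R 4.3.3 (lmFit, eBayes, all 4 arrays, no covariates), with Benjamini-Hochberg adjustment over all genes and calls at an adjusted p below 0.05. The fit had 2 residual degrees of freedom, to which the prior added 3.27. It was also run on simulated data in which far fewer genes changed than were called here, so that run does not bear on the number of calls. The number of arrays limits the precision, and without detection calls no background limit is known. Alternatives were the mean of probe sets, gene-specific probe sets, brighter genes, an intensity trend, reference gene scaling, all probe sets, each array left out, and the replicate block.

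The members and lists were chosen with earlier results of these data known. Named were all members, PRMT6, in each list the 4 called genes that changed most (2 where none was called), and the 3 genes most alike to the members with the largest fall and rise; others are said to be chosen after their values were seen.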

Additional observations from a re-analysis of the deposited data

How the results depend on the processing

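HMOX1, SRXN1, TXNRD1, GCLM, GCLC and OSGIN1 stayed lower and called in all 11 alternatives, with highest adjusted p-values of 0.026 to 0.045 in limma. NQO1 has no gene-specific probe set. It stayed called in 8 of its 10 alternatives and NFE2L2 in 4 of 11. Among these alternatives reference gene scaling lowered the difference of every gene, so it could hardly undo a fall. The count of the 9 genes called lower was 8 in the reported fit, 7 with the mean of probe sets, 7 of 8 with gene-specific probe sets and 6 to 7 with single arrays left out. None was called higher in any setting by limma, and 0 were higher at an unadjusted p below 0.05. Over all genes, those called higher numbered 2459, but 1616 with gene-specific probe sets, 1112 with reference gene scaling and 154 to 1371 with single arrays left out, where a lone array is assumed to vary like the other group. Those called lower numbered 2281, but 9495 with reference gene scaling, which moved the median of all genes to -0.31 and that of the 9 genes to -1.74 and turned KEAP1 to -0.12, NIBAN2 to -0.12, BLCAP to -0.11 and THAP4 to -0.12, and 354 to 1258 with single arrays left out. Arrays with the same number share only a number: their deviations correlated at 0.05 across genes. With the replicate block 7 of the 9 genes were called lower, and 2035 and 1937 genes were called higher and lower; NFE2L2 had an adjusted p of 0.058 and PRMT6 of 0.076, and of the genes named from the lists GSR (0.082) and PRDX1 (0.060) were lost. The alternatives for genes of the lists were added after seeing the data.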
